A study of Mus musculus with 4 samples.

Results

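The genes described here are the chemokines and cytokine ligands of the mouse, secreted or membrane-bound proteins through which cells signal to other cells. These genes, and the gene lists set beside them below, were picked with earlier results of these data known. Shares set beside those of all genes are therefore descriptive. The rule took every gene whose single symbol in the array annotation starts with Cxcl, Ccl or Tnfsf followed by a digit. It added 25 listed cytokine and growth factor symbols. The rule found 62 genes among the 18193 genes measured, read by 99 probe sets. They were 13 Cxcl chemokines, 18 Ccl chemokines, the chemokines Cx3cl1 and Xcl1, 11 genes of the tumour necrosis factor (TNF) superfamily, 4 haematopoietic growth factors, 7 interleukins, 5 genes of the VEGF and PDGF families and 2 of the epidermal growth factor (EGF) family. Among the genes with no probe set of a single symbol, and so not analysed here, were Areg, Flt3l, Tnfsf12, Tnfsf13, Ccl19 and Ccl21a. Tnfsf13os fits the rule by its symbol but is an antisense transcript of the Tnfsf13 locus, not a ligand gene.

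Expression was profiled on 4 single-channel Affymetrix arrays, 2 from Npac RNAi cells and 2 from control RNAi cells. All were E14 mouse embryonic stem cells, a single established line, grown in 15% serum with LIF at 1000 units per ml. Npac RNAi cells were transfected with a short hairpin RNA against Npac, control RNAi cells carry a control hairpin that the labels do not describe further, and both groups were harvested after 3 days of puromycin selection that began 24 hours after transfection. The labels do not say whether the 2 samples of a group were separate cultures, so p-values measure the spread between these samples, which may be technical.

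Chemokines are small proteins that bind G-protein-coupled receptors and direct the movement of leukocytes and other cells. The Cxcl and Ccl families differ in the spacing of their first cysteines, and the TNF superfamily acts mostly as trimers on the cell surface. Many of these genes are kept nearly silent in embryonic stem cells and are switched on in other cell types through the transcription factors NF-kB, AP-1 and the interferon-regulated STAT and IRF proteins.

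Values are log2 levels from RMA, a method that corrects background and equalises arrays, so every difference is measured against the other transcripts of the same array. A gene was called at a limma adjusted p under 0.05 over all 18193 genes. Npac, the targeted gene (current symbol Glyr1), had levels of 10.23 and 10.20 after Npac RNAi, against 11.30 and 11.32 after control RNAi, and so fell by 1.09 on the log2 scale (SE 0.0458, limma adjusted p = 0.00101). Stem cell markers were high on every array: 7 markers lay between 10.43 and 14.71 in Npac RNAi and between 10.65 and 14.75 in control RNAi. Of these 5 were called lower and 2 had no call. The largest falls were those of Tdgf1 (log2 difference -1.23, SE 0.0457) and Pou5f1 (-1.17, SE 0.0491). The 8 trophoblast markers ranged from 4.74 to 14.15 in Npac RNAi and from 4.45 to 12.08 in control RNAi, with array means of 9.84 and 9.87 in Npac RNAi and of 8.18 and 8.10 in control RNAi. Of these 7 were called higher, and 6 after scaling to the added poly-A control RNAs (spike-ins), whose signal was 0.54 higher in Npac RNAi. Without that scaling 22.1% of all genes were called higher and 18.7% lower. In bulk RNA more cells of a type and more RNA per cell cannot be told apart, and the part of trophoblast markers in the ligand differences was not tested.

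A few ligand genes rose strongly after Npac depletion, while most stayed close to their control level. Csf1, the growth factor of macrophages, and Cxcl10, an interferon-inducible chemokine for T cells, each rose more than 7-fold, and Pdgfb and Cxcl16 rose more than 2-fold. In all 16 of the 62 genes were called higher and 10 lower, or 41.9%; without the antisense Tnfsf13os the lower calls were 9 and the calls 25 of 61. This is close to the share among all genes, of which 40.8% were called, 22.1% higher and 18.7% lower. The median log2 difference was -0.06 over the ligand genes and -0.04 over all genes. Rises of at least 2-fold were called for 4 ligand genes, or 6.45%, beside 2.92% of all genes, and no ligand gene was called lower by 2-fold or more by limma, beside 0.258% of all genes. At 1.5-fold or more 9 were called higher, beside 8.09% of all genes, and the only one called lower was Tnfsf13os, beside 2.04% of all genes. With any 1 array left out, 10 to 13 ligand genes were called higher and 0 to 5 lower (at an unadjusted limma p under 0.05, 10 were lower without control RNAi array 2, where the adjusted count was 0). The same 10 rises were called whichever array was left out, namely Csf1, Cxcl10, Pdgfb, Cxcl16, Il33, Pdgfa, Il15, Ccl27a, Cxcl11 and Kitl.

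**Figure D1:**
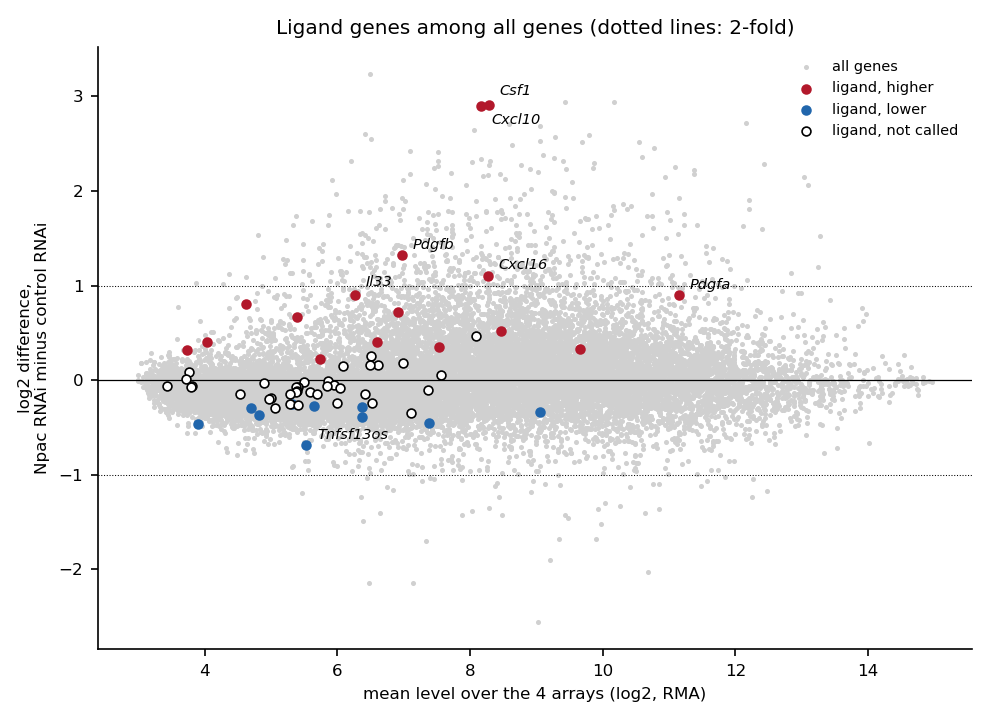
Mean log2 level over the 4 arrays (x axis) and log2 difference, Npac RNAi minus control RNAi (y axis), for all 18193 genes (grey) and the 62 ligand genes (coloured by call). Csf1 and Cxcl10 lie at 2.91 and 2.90, and most of the other ligand genes lie close to 0.

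Most ligand genes gave a low signal. Of the 62, 52 had a mean below the median of all genes (7.49) and 26 were below the 25th percentile (5.51). The call counts differed with the level: 18 of the 52 below the median were called (34.6%, beside 28.7% of all genes there), and 8 of the 10 at or above it (80%, beside 52.9%). All genes at low levels also drifted down slightly on the Npac RNAi arrays, with a median log2 difference of -0.12 among all genes below the median level and 0.06 among those at or above it. The 52 ligand genes below the median level had a median of -0.08, so small negative differences of dim ligand genes do not stand apart from this drift.

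Csf1 encodes macrophage colony-stimulating factor, which signals through the receptor tyrosine kinase Csf1r and is also made by the uterus and acts on trophoblast. Its brightest probe set read 9.79 and 9.68 on the Npac RNAi arrays, against 6.72 and 6.93 on the control RNAi arrays. The groups were far apart and Csf1 was higher by 2.91 on the log2 scale (SE 0.0912, 7.50-fold, limma adjusted p = 0.000704). The other 3 probe sets of Csf1 differed from it: 1 rose by 1.44, 1 rose by 0.79, and the last was slightly lower (-0.25), each called in a fit over all probe sets. Averaged over its 4 probe sets Csf1 rose by 1.22 on the log2 scale. Which Csf1 transcripts the probe sets read was not tested. The receptor gene Csf1r was called with a small rise, at 6.93 and 6.97 in Npac RNAi and 6.78 and 6.67 in control RNAi (log2 difference 0.23, SE 0.06, limma adjusted p = 0.0452), a rise smaller than the spike-in shift of 0.54.

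Cxcl10 encodes a chemokine without the Glu-Leu-Arg motif that binds the receptor Cxcr3, as do the products of Cxcl9 and Cxcl11. It was read by 1 probe set, at 9.60 and 9.64 in Npac RNAi, against 6.75 and 6.69 in control RNAi, which is 2.90 on the log2 scale (SE 0.0516, 7.46-fold, limma adjusted p = 0.000704). The replicates of each group lay within 0.1 of each other. Cxcl11 rose less, to 5.66 and 5.78 in Npac RNAi, against 5.00 and 5.09 in control RNAi (log2 difference 0.67, SE 0.0672, limma adjusted p = 0.00461), and a second, dimmer probe set of it had no call (0.01). With spike-in scaling Cxcl11 lost its call (0.13). Cxcl9 went the other way at a very low signal, with 3.75 and 3.57 in Npac RNAi and 4.10 and 4.15 in control RNAi (log2 difference -0.46, SE 0.0779, limma adjusted p = 0.0146). Its call was lost without control RNAi array 1 (adjusted p = 0.064) or control RNAi array 2 (0.0843) and when its probe sets were averaged (-0.26). The 3 ligands of Cxcr3 thus differed in direction, and the receptor gene Cxcr3 itself was dim and had no call (4.98 and 4.82 in Npac RNAi, 5.17 and 4.97 in control RNAi).

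The promoters of Cxcl10 and Csf1, as the genes that rose most, and of Cxcl9, as the ligand of the same receptor that was lower, are shown for comparison. Each line gives the 250 bases before the RefSeq start site in GRCm38.p6, 5′ to 3′ on the strand of the gene, all on the minus strand: Cxcl10 at chr5:92348890-92349139, Csf1 at chr3:107760470-107760719 and Cxcl9 at chr5:92328080-92328329. Capitals mark matches, on either strand, to the NF-kB motif, the interferon-stimulated response element (GAAA, any 2 bases, GAAA), the AP-1 motif (TGANTCA) and the TATA box (TATAAA).
Cxcl10: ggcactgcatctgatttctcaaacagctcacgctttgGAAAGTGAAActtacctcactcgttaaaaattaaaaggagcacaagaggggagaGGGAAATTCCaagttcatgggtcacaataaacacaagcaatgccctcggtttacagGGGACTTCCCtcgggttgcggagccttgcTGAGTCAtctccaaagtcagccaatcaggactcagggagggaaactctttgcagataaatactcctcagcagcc
Csf1: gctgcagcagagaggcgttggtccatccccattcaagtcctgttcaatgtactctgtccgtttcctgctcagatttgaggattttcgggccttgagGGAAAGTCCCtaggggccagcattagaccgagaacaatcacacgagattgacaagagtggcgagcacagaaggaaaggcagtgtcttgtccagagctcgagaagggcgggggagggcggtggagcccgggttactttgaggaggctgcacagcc
Cxcl9: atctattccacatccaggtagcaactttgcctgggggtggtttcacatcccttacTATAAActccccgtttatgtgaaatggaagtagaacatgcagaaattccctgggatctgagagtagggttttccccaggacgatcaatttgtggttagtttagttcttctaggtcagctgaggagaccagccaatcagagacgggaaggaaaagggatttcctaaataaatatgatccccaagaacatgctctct

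The Cxcl10 window held the interferon-stimulated response element from 213 to 204 bases before the start site, NF-kB motifs from 159 to 150 and from 103 to 94, and an AP-1 motif from 74 to 68. The Csf1 window held 1 NF-kB motif, from 154 to 145 bases before the start, and the Cxcl9 window held only a TATA box match, from 195 to 190. RefSeq promoters were matched for 44 of the 62 ligand genes. The NF-kB motif stood in 10 of their 53 promoters (18.9%), against 3.9% of the 32851 promoters of all genes, AP-1 in 8 (15.1%) against 6.75%, the response element in 4 (7.55%) against 2.98%, and the TATA box in 18 (34%) against 12.4%. These shares were not tested against each other. Among genes with a promoter the NF-kB motif was present in 4 of 10 called higher (Csf1, Cxcl10, Cxcl2 and Il6), 0 of 9 called lower and 6 of 25 not called. The AP-1 motif was present in 4 of 10 called higher, 0 of 9 called lower and 4 of 25 not called, the response element in 1, 0 and 3 of them, and the TATA box in 2, 4 and 11. The calls on Cxcl2, Il6 and Il11 and all the lower calls were lost with some array left out, and these splits were not tested. A match describes the letters of the window and is not evidence of a bound site.

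Among the other Cxcl genes, Cxcl16 rose clearly. It encodes a transmembrane chemokine that also acts as a scavenger receptor and binds Cxcr6. Its brightest probe set read 8.75 and 8.90 in Npac RNAi, against 7.73 and 7.71 in control RNAi (log2 difference 1.10, SE 0.0684, 2.15-fold, limma adjusted p = 0.00182). The second probe set showed a larger rise (2.37), so the size of the change depends on the probe set while both rose. Its receptor gene Cxcr6 lay near the bottom of the signal range and had no call (3.82 and 3.76 in Npac RNAi, 3.92 and 4.09 in control RNAi).

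The neutrophil chemokines gave mixed readings. Cxcl1, which recruits neutrophils through Cxcr2, had 7.64 and 7.56 in Npac RNAi and 7.47 and 7.61 in control RNAi at its brightest probe set, groups that overlap (log2 difference 0.06, SE 0.07, limma adjusted p = 0.54). This probe set carries the suffix given to sets that match several transcripts. The other 2 were called in opposite directions, at 0.82 and -0.26, and without such multi-matching sets Cxcl1 was called higher. No direction can therefore be given for Cxcl1. Cxcl2, a close relative, rose by 0.32 (SE 0.0634) at the bottom of the range, with 3.93 and 3.86 in Npac RNAi and 3.63 and 3.52 in control RNAi, but the call did not survive the removal of any single array (largest adjusted p 0.0917), and spike-in scaling turned the sign (-0.22). Cxcl13, the B cell chemokine, was lower by a similar amount (-0.28, SE 0.0748), and its call was likewise gone whichever array was removed (largest adjusted p 0.165). The 7 Cxcl genes without a call (Cxcl1, Cxcl3, Cxcl5, Cxcl12, Cxcl14, Cxcl15 and Cxcl17) ranged from -0.26 to 0.26.

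All 18 Ccl chemokines lay below the median level. Of these 2 were called higher and 2 lower (22.2%), beside 28.7% of all genes below that level. Ccl27a, a skin chemokine for T cells, rose to 7.27 and 7.28 in Npac RNAi, against 6.57 and 6.55 in control RNAi (log2 difference 0.72, SE 0.0463, limma adjusted p = 0.00195). It rested on 1 probe set whose probes may also bind near-identical Ccl27 copies. Both brighter probe sets that are annotated to Ccl27a together with such copies, and were not used, differed by less (0.27 and 0.42). Ccl27a lost its call with spike-in scaling (0.18). Ccl2, the monocyte chemoattractant, rose by 0.40 (SE 0.0623, limma adjusted p = 0.0121), with 6.73 and 6.85 in Npac RNAi and 6.38 and 6.41 in control RNAi. The Ccl2 call was lost without control RNAi array 1 (adjusted p = 0.0652), control RNAi array 2 (0.0654) or Npac RNAi array 2 (0.054), and the sign turned with spike-in scaling (-0.14).

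Ccl3, an inflammatory macrophage chemokine, and Ccl6, a chemokine of myeloid cells known in rodents, were called lower. Ccl3 stood at 7.06 and 7.24 in Npac RNAi, against 7.53 and 7.68 in control RNAi (log2 difference -0.45, SE 0.0911, limma adjusted p = 0.0225), and the call was lost without control RNAi array 1 (adjusted p = 0.0599), control RNAi array 2 (0.106) or Npac RNAi array 1 (0.0678). Ccl6 was lower by less (-0.26, SE 0.0581) and no removal of an array left its call standing (largest adjusted p 0.122). The other 14 Ccl genes had no call and ranged from -0.35 to 0.16. Among them Ccl28, a mucosal chemokine, had 1 probe set called lower (-0.50) beside a brighter one near 0 (-0.05).

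Calls were also set against the order of the genes on the chromosomes, with no test of neighbourhood. Among protein-coding genes of the RefSeq annotation, Ccl2, Ccl7, Ccl11, Ccl12, Ccl8 and Ccl1 follow one another on chromosome 11, and of these 6 Ccl2 was the only one called. A second run of 5, Ccl5, Ccl9, Ccl6, Ccl3 and Ccl4, held 2 called lower, Ccl6 and Ccl3, and all 5 differences were negative, between -0.45 and -0.07. Negative differences were common at such levels, in 14 of all 18 Ccl genes and in 6385 of the 9096 genes below the median level. On chromosome 8 the run Ccl22, Cx3cl1 and Ccl17 held 1 call, Cx3cl1 lower. On chromosome 5 the run Cxcl3, Cxcl15, Cxcl1 and Cxcl2 held 1 call, that on Cxcl2. The remaining chemokines outside the Cxcl and Ccl families were low: Cx3cl1, the membrane-anchored fractalkine, was called lower (-0.28, SE 0.0592, limma adjusted p = 0.0249), a call that vanished with each array removed (largest adjusted p 0.1004), and Xcl1 had no call (-0.20, SE 0.0728).

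**Figure D2:**
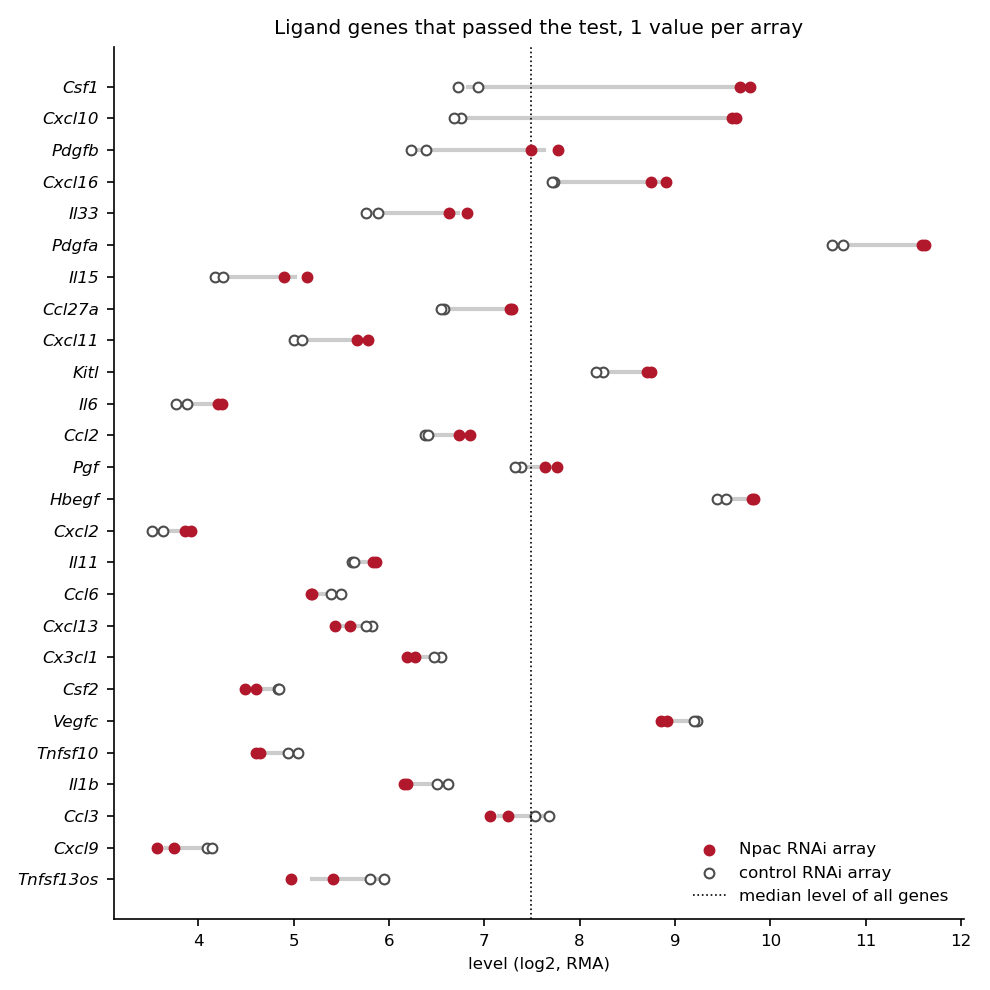
Log2 levels on each array for the 26 ligand genes called by limma, Npac RNAi arrays as filled and control RNAi arrays as open circles, ordered by log2 difference. The groups do not overlap in any of these genes, which adds no support because the genes were picked by their calls on the same arrays. Among all genes 74.2% had no overlap. The gap is widest for Csf1 and Cxcl10, and most of the called genes lie left of the median level of all genes (7.49).

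Of the 5 VEGF and PDGF genes, growth factors for mesenchymal and vascular cells, 3 were called higher and 1 lower; 4 of the 5 lay at or above the median level, where 52.9% of all genes were called. Pdgfa, a mitogen for cells with the receptor Pdgfra, rose to 11.59 and 11.62 in Npac RNAi, against 10.76 and 10.65 in control RNAi (log2 difference 0.90, SE 0.0598, 1.87-fold, limma adjusted p = 0.00207). Its second probe set gave nearly the same rise (0.94). Pdgfb read 7.77 and 7.49 in Npac RNAi and 6.23 and 6.39 in control RNAi (log2 difference 1.32, SE 0.118, 2.50-fold, limma adjusted p = 0.00369). A second, dimmer probe set of Pdgfb had no call (0.09), and the mean of both was 0.71. Receptor genes split between the chains: Pdgfrb was higher at 8.38 and 8.55 in Npac RNAi, against 7.68 and 7.67 in control RNAi (log2 difference 0.79, SE 0.0737, limma adjusted p = 0.004), and Pdgfra was lower at 8.44 and 8.36 in Npac RNAi, against 8.98 and 8.79 in control RNAi (log2 difference -0.49, SE 0.0855, limma adjusted p = 0.0163).

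The vascular growth factors differed from one another. Vegfc, the lymphatic growth factor, was lower at 8.85 and 8.92 in Npac RNAi, against 9.23 and 9.20 in control RNAi (log2 difference -0.34, SE 0.0511, limma adjusted p = 0.0116). Its 3 probe sets were all called lower, between -0.46 and -0.34, although with 1 array left out the call held only without Npac RNAi array 2 and otherwise had an adjusted p up to 0.0605. Pgf, placental growth factor, rose slightly, with 7.64 and 7.76 in Npac RNAi and 7.38 and 7.32 in control RNAi (log2 difference 0.35, SE 0.0658, limma adjusted p = 0.0195). The call on Pgf was lost without control RNAi array 1 (adjusted p = 0.0668), control RNAi array 2 (0.0984) or Npac RNAi array 2 (0.0804), and its sign turned with spike-in scaling (-0.19). Vegfa, the main angiogenic factor, had 8.24 and 8.41 in Npac RNAi and 8.04 and 7.67 in control RNAi without a call (log2 difference 0.47, SE 0.146, limma adjusted p = 0.0659). The control arrays differed by 0.37 in Vegfa, and it was called higher without control RNAi array 1 (0.65, adjusted p = 0.0428).

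In the EGF family Hbegf, which binds the receptors Egfr and Erbb4, rose a little at both of its probe sets (0.33 and 0.37). It stood at 9.81 and 9.83 in Npac RNAi, against 9.44 and 9.54 in control RNAi (SE 0.0558, limma adjusted p = 0.015). The call was lost without control RNAi array 1 (adjusted p = 0.0614), Npac RNAi array 1 (0.0583) or Npac RNAi array 2 (0.076), and the sign turned with spike-in scaling (-0.21). Ereg was dim and had no call (-0.07, SE 0.185).

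Of the haematopoietic growth factors other than Csf1, Kitl rose and Csf2 was lower. Kitl, or stem cell factor, supports germ cells and blood progenitors and binds the receptor Kit. It read 8.70 and 8.74 in Npac RNAi, against 8.24 and 8.17 in control RNAi (log2 difference 0.52, SE 0.0534, limma adjusted p = 0.00492). Of its 4 probe sets 2 were called higher, the others lay at 0.04 and -0.13, the call was lost for the mean of probe sets (0.19), and with spike-in scaling the value was -0.02. The receptor gene Kit was lower, at 9.77 and 9.69 in Npac RNAi and 10.61 and 10.52 in control RNAi (log2 difference -0.83, SE 0.0602, limma adjusted p = 0.00243). Csf2, which drives granulocytes and macrophages, was lower at a level under the 25th percentile of all genes (-0.30, SE 0.0593, limma adjusted p = 0.0217) and lost its call without control RNAi array 1 (adjusted p = 0.0857), control RNAi array 2 (0.101) or Npac RNAi array 2 (0.0903). Csf3 had no call (-0.14, SE 0.0615).

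Among the 7 interleukins 4 were called higher and 1 lower. All lay below the median level, where 10.5% of all genes were called higher and 18.1% lower. Il33, an alarmin stored in the nucleus, had 6.63 and 6.82 in Npac RNAi, against 5.88 and 5.75 in control RNAi (log2 difference 0.90, SE 0.0904, 1.87-fold, limma adjusted p = 0.0046). Il15, which sustains natural killer and memory T cells, rose to 5.14 and 4.90 in Npac RNAi, against 4.17 and 4.26 in control RNAi (log2 difference 0.80, SE 0.0979, limma adjusted p = 0.00697). Both rises were called whichever array was left out, and that of Il15 lost its call with spike-in scaling (0.26).

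Il6, a cytokine that shares its signalling subunit with LIF, rose by 0.40 at a very low signal, with 4.21 and 4.25 in Npac RNAi and 3.88 and 3.77 in control RNAi (SE 0.0602, limma adjusted p = 0.0111). Its call was lost without control RNAi array 2 (adjusted p = 0.0558) or Npac RNAi array 2 (0.0607). Il11, of the same cytokine family, rose by 0.23 (SE 0.0465, limma adjusted p = 0.0236), a call that was gone with each array removed (largest adjusted p 0.114). With spike-in scaling Il6 was at -0.14 and Il11 at -0.31. Il1b, the inflammasome-processed cytokine, was lower, with 6.15 and 6.19 in Npac RNAi and 6.50 and 6.62 in control RNAi (log2 difference -0.39, SE 0.0608, limma adjusted p = 0.012), and held its call only without control RNAi array 1 (adjusted p up to 0.0571 without another array). Il1a and Il18 had no call, at -0.06 and 0.15.

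All 11 TNF superfamily genes lay below the median level, where 10.5% of all genes were called higher and 18.1% lower (22.1% and 18.7% at any level). Of these 11 limma called 0 higher and 2 lower, Tnfsf10 and the antisense Tnfsf13os. At an unadjusted p under 0.05 there were also 0 higher, but 2 after cyclic loess and 1 after centring on the array median. The median log2 difference was -0.13. Tnfsf10, the apoptosis-inducing ligand TRAIL, was lower at 4.61 and 4.65 in Npac RNAi, against 4.94 and 5.04 in control RNAi (log2 difference -0.36, SE 0.0578, limma adjusted p = 0.0127). That probe set was the only 1 of 3 with a call, and the call was lost without control RNAi array 2 (adjusted p = 0.0629), Npac RNAi array 1 (0.0584) or Npac RNAi array 2 (0.0566). The antisense transcript Tnfsf13os was lower at 5.41 and 4.97 in Npac RNAi, against 5.81 and 5.94 in control RNAi (log2 difference -0.68, SE 0.164, limma adjusted p = 0.035). Its Npac RNAi arrays lay 0.44 apart, and the call was lost without control RNAi array 1 (adjusted p = 0.105), control RNAi array 2 (0.157) or Npac RNAi array 2 (0.0521). Tnf itself, the founding member, lay at 5.60 and 5.46 in Npac RNAi and at 5.70 and 5.60 in control RNAi with no call (-0.12, SE 0.0744). The 9 members without a call ranged from -0.19 to 0.19.

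Over all families, 34 ligand genes below the median level had no call. Their differences ran from -0.35 to 0.26, 27 of them negative and 7 positive, and the groups did not overlap in 14. Called or not, 36 of the 52 ligand genes below the median level were negative, beside 6385 of all 9096 genes there. The groups did not overlap in 61.5% of these ligand genes and in 62.7% of all genes at such levels. Among all 62 ligand genes the groups did not overlap in 41 (66.1%), beside 74.2% of all genes.

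Several ligand genes depended on the probe set. Of the 25 ligand genes with more than 1 probe set, 13 had the same call throughout, 12 had mixed calls, and 2 of these, Csf1 and Cxcl1, had calls in opposite directions. The probe sets of 6 genes spread by more than 0.5 on the log2 scale. In the fit over all probe sets 23 of the 99 ligand probe sets were called higher and 18 lower.

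**Figure D3:**
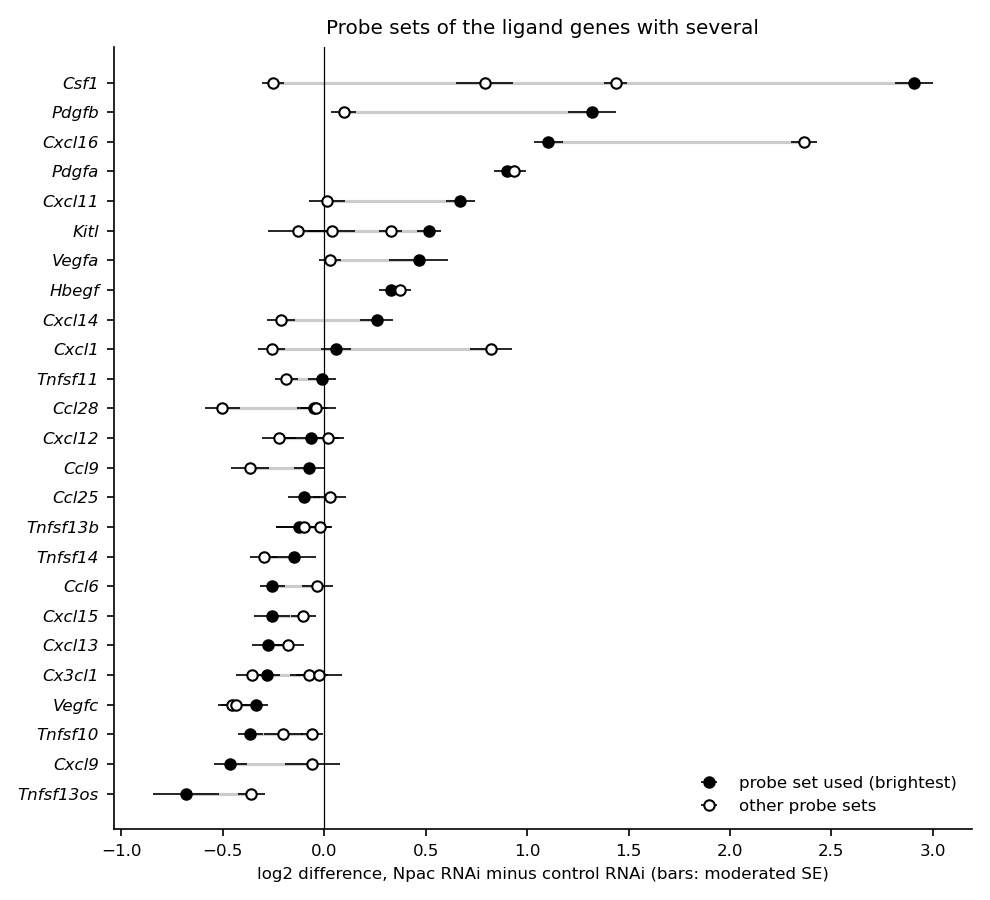
Log2 difference, Npac RNAi minus control RNAi, for every probe set of the 25 ligand genes with several; filled circles mark the brightest probe set, which represents the gene, and bars are limma's moderated standard errors. Csf1 runs from -0.25 to 2.91 and Cxcl1 from -0.26 to 0.82, while the probe sets of Pdgfa, Hbegf and Vegfc lie close together.

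The receptors of these ligands, 62 of 67 listed being measured, included 13 called higher and 7 lower, beside 22.1% and 18.7% of all genes. Their median log2 difference was -0.08. Of the 12 at or above the median level 7 were called higher and 2 lower, beside 33.6% and 19.3% of all genes there. The other receptors lay below it, where 10.5% of all genes were called higher and 18.1% lower. Tnfrsf12a, the receptor of the TNF ligand TWEAK, rose by 1.01 (SE 0.0463). The TWEAK gene Tnfsf12 was read only by unused probe sets that also name other genes. These differed by -0.65 and -0.28 and were not tested. Ackr3, a scavenging receptor of Cxcl12, rose by 1.78 (SE 0.0601). Cxcl12 itself had no call (-0.06, SE 0.136). Kit and Pdgfra were the lower ones with the smallest adjusted p, as given above. With spike-in scaling the receptor counts were 6 higher and 50 lower.

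Regulators of NF-kB and interferon signalling act upstream of many of these genes. Of 32 measured, 13 were called higher and 1 lower, beside 22.1% and 18.7% of all genes, with a median of 0.19. The list was chosen with earlier results of these data known and includes NF-kB targets such as Nfkbia and Birc3. Its counts are therefore descriptive. Of the 20 at or above the median level 11 were called higher, beside 33.6% of all genes there. With spike-in scaling 3 were higher and 21 lower. Nfkbia, an inhibitor that is itself an NF-kB target, stood at 12.30 and 12.28 in Npac RNAi, against 11.35 and 11.26 in control RNAi (log2 difference 0.98, SE 0.0558, limma adjusted p = 0.00163), and Birc3, another such target, rose by 0.998 (SE 0.0549). The interferon signal transducer Stat2 was lower (-0.25, SE 0.045, limma adjusted p = 0.018).

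Markers of cells that produce or respond to these ligands were set beside them. Over all genes 22.1% were called higher and 18.7% lower. Of 10 leukocyte markers measured, 2 were called higher and 2 lower, with levels from 3.68 to 8.88 in Npac RNAi and from 3.55 to 7.87 in control RNAi. Their array means were 5.85 and 5.81 in Npac RNAi and 5.80 and 5.83 in control RNAi. Ptprc, the pan-leukocyte antigen CD45, lay near the bottom of the range at 3.68 and 3.76 in Npac RNAi and at 3.55 and 3.86 in control RNAi. The lysosomal macrophage marker Cd68 was higher (1.02, SE 0.0514), Csf1r was slightly higher, and Spi1 (-0.41, SE 0.111) and Cd3e (-0.29, SE 0.0589) were lower. Fibroblast markers gave 1 higher, Pdgfrb, and 1 lower of 7, Col3a1 (-0.20, SE 0.0527), with levels from 3.58 to 8.55 in Npac RNAi and from 3.78 to 7.68 in control RNAi. Endothelial markers gave 0 higher (also 0 at an unadjusted limma p under 0.05) and 3 lower of 6, with Pecam1 (-0.39, SE 0.0456) and Vwf (-0.74, SE 0.0645) leading.

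**Figure D4:**
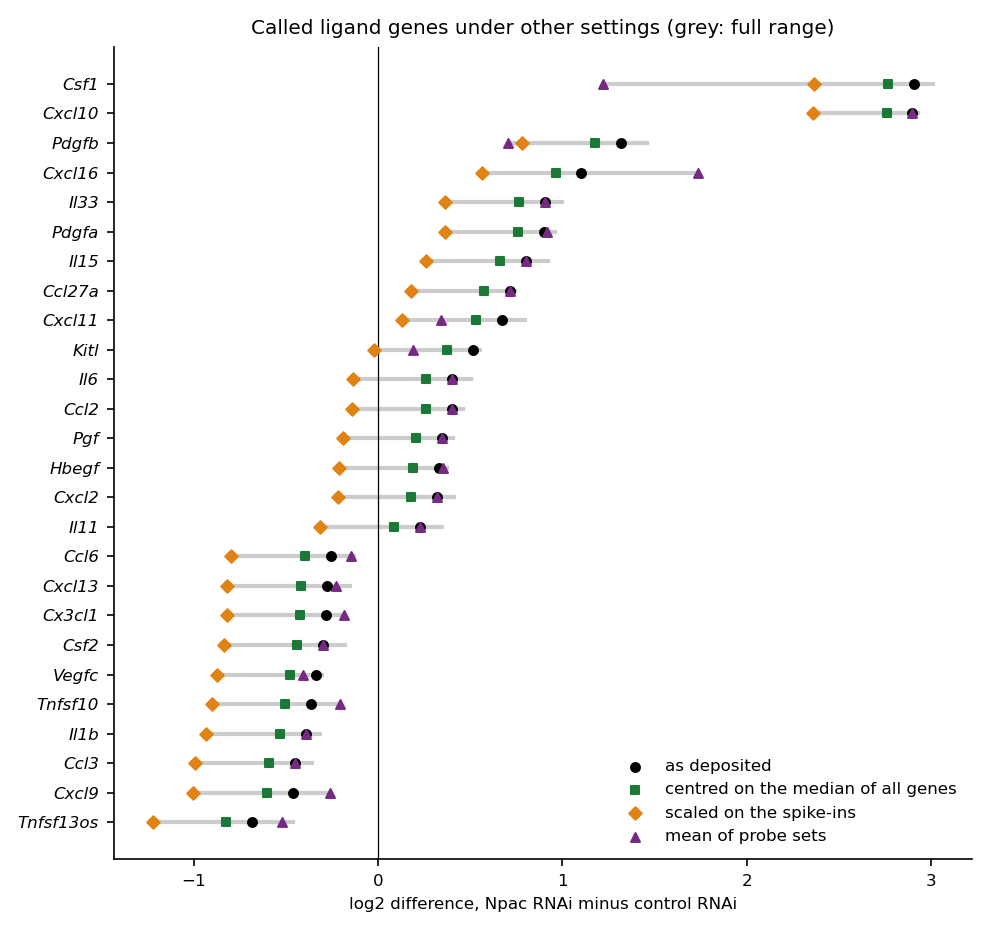
Log2 difference, Npac RNAi minus control RNAi, of the 26 called ligand genes as deposited (circles), centred on the median of all genes (squares), scaled on the spike-ins (diamonds) and with probe sets averaged (triangles); grey lines span all settings tried. Csf1 and Cxcl10 stay above 1.2 in every setting, and 7 of the smaller rises, from Kitl down, fall below 0 with spike-in scaling.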

How the data were processed

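The deposited values were 1 log2 level per probe set and array for 4 arrays. Per the submitters' processing notes the authors used RMA; no version, software or probe set definition is given in the sources used here. The log base was inferred from the values. Of 45101 probe sets, 64 manufacturer's controls were left out, 34945 carried 1 gene symbol and were used, and 932 with several symbols, 7 of them naming a ligand gene, were not used. Symbols were updated through Entrez identifiers to RefSeq (GRCm38.p6), matching 34741 probe sets. Where a gene had several probe sets, the brightest on average stood for it.

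Differences, Npac RNAi minus control RNAi, were tested in R 4.3.3 with limma 3.58.1 (lmFit, eBayes, group as the only term, 2 residual degrees of freedom), with Benjamini-Hochberg adjustment over 18193 genes. The procedure was tested on simulated data. Alternatives were other empirical Bayes forms, normalizations, scalings, filters, probe set choices, thresholds, a replicate block and each array left out. A group left with 1 array took its spread from the other group.

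Named were the targeted gene, every called ligand gene, uncalled ones at or above the median level, up to 2 higher and 2 lower called genes of each list by adjusted p, and receptors of ligands changed at least 2-fold. Ccl28, Csf3, Cxcl12, Ereg, Il1a, Il18, Ptprc, Tnf, Tnfsf12 and Xcl1 were named outside this rule, after their values were seen. Ligand genes and lists were chosen with earlier results of these data known. Promoters came from RefSeq tables. Protein sequences were not used here. The number of arrays limits the precision.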

Additional observations from a re-analysis of the deposited data

Results flagged for a closer look

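The 24 poly-A spike-in probe sets, which take no part in the comparisons above, read higher on the Npac RNAi arrays, by 0.54 on average on the log2 scale and in 24 of 24 probe sets (0.21 to 0.81). Their mean was 9.15 and 9.24 on the Npac RNAi arrays, against 8.70 and 8.61 on the control RNAi arrays. They are repeated readings of a few transcripts added before labelling.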

How the results depend on the processing

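As deposited, limma called 26 ligand genes (16 higher, 10 lower), 41 ligand probe sets, 20 receptors, 14 NF-kB and interferon regulators, 18 other growth factors and 7425 genes in all (4020 higher, 3405 lower). With 1 array left out the ranges were 11 to 18 ligand genes (10 to 13 higher, 0 to 5 lower), 13 to 19 probe sets, 11 to 18 receptors, 9 to 11 regulators, 8 to 12 growth factors and 3088 to 4731 genes (2100 to 2761 higher, 988 to 1970 lower); these fits have fewer samples and fewer residual degrees of freedom. Without moderation there were 8 ligand genes (7 higher, 1 lower), 8 probe sets, 8 receptors, 6 regulators, 6 growth factors and 2551 genes (1557 higher, 994 lower). At an adjusted p under 0.01 there were 10 ligand genes (10 higher, 0 lower), 14 probe sets, 10 receptors, 9 regulators, 6 growth factors and 3129 genes (2115 higher, 1014 lower). Against a minimum of 1.5-fold (limma's treat) there were 4 ligand genes (4 higher, 0 lower), 6 probe sets, 5 receptors, 2 regulators, 4 growth factors and 565 genes (502 higher, 63 lower). At an unadjusted p under 0.05, 14 ligand genes were lower in limma's test as deposited and 0 in treat.

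Scaling on the spike-ins shifted every difference by -0.54 and called 52 ligand genes (6 higher, 46 lower), 86 probe sets, 56 receptors, 24 regulators, 36 growth factors and 15801 genes (906 higher, 14895 lower, or 5.73% higher against 54.1% as deposited). It reversed Kitl (-0.023), Vegfa (-0.074), Il6 (-0.14), Ccl2 (-0.14), Pgf (-0.19), Hbegf (-0.21), Cxcl2 (-0.22), Il11 (-0.31) and Cxcl1 (-0.48). Centring on the median of all genes, chosen after seeing the data, moved the median difference of all genes to -0.18, against -0.04 as deposited, and called 22 ligand genes lower, 35 receptors and 7175 genes lower (28.4% of calls higher). Cxcl1 was also reversed there (-0.082), after quantile normalization (-0.047) and without control RNAi array 1 (-0.011, against 0.127 without control RNAi array 2). Fewer genes were tested with filters on level: 6 ligand genes were lower among genes at or above the 25th percentile, and at or above the median there were 9 ligand genes (8 higher, 1 lower), 10 receptors and 7 growth factors.

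With replicate numbers as a block 4375 genes (1665 lower), 5 ligand genes lower, 21 ligand probe sets and 11 growth factors were called. The labels do not say whether equal numbers pair the samples. Deviations of same-numbered arrays correlated at -0.17, which with 2 arrays a group cannot settle it. A crossed block, chosen after seeing the data, called 26 ligand genes and 7033 genes. Values of single ligand genes over all settings were counted only for the 26 called ones and for Cxcl1 and Vegfa. Of these values 377 kept direction and call, 137 lost the call, 7 gained one and 12 changed sign.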

Other observations

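Growth factor ligands outside the chemokine and cytokine rule were read in the same fit. Of 40 measured (45 listed), 11 were called higher and 7 lower, beside 22.1% and 18.7% of all genes. Their median log2 difference was -0.06, and spike-in scaling gave 5 higher and 31 lower. Lif, the cytokine that is also in the culture medium, rose to 8.14 and 8.25 in Npac RNAi, against 6.73 and 6.66 in control RNAi (log2 difference 1.501, SE 0.065, 2.83-fold, limma adjusted p = 0.00107). Wnt7b, a Wnt ligand with a role in the placenta, rose by 1.11 (SE 0.0563). Fgf4, a growth factor secreted by embryonic stem cells, was lower at 10.07 and 10.04 in Npac RNAi, against 10.61 and 10.54 in control RNAi (log2 difference -0.52, SE 0.052, limma adjusted p = 0.00462), and Vegfb was lower by a similar amount (-0.57, SE 0.0545).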
